A study of Mus musculus with 3 samples.

Results

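The mouse steroid 5α-reductase gene Srd5a2 lies on chromosome 17 (mm10, 74016955 to 74047916, minus strand), and 36 annotated genes on its flanks were examined here in prostate single cells. They were taken by symbol from the 32594 genes of the deposited tables, as neighbours within about 5 Mb on either side. By the gap between gene ends, 34 lay within 5 Mb, while Qpct and Cdc42ep3 lay 5.004 and 5.29 Mb away. The window held 50 protein-coding genes, of which 17 were not in the set. The question was whether single neighbours shift with the genotype label in every cell type.

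The cells came from whole mouse prostate and were sequenced in droplets (10x Genomics). The study has 1 library labelled Srd5a2 knockout (Srd5a2-/-) and 2 libraries labelled Srd5a2 heterozygous (Srd5a2+/-). All 3 are labelled strain C57BL6 and 12 to 15 weeks of age, though the protocol text gives 12 weeks, and none had a treatment. Each tissue was digested for 2 h at 37 °C with dihydrotestosterone in the buffer, then for 10 min in TrypLE. The heterozygous animals carry the altered Srd5a2 allele on 1 chromosome copy, so both genotypes hold it. The deleted part of the gene, the stem cell strain in which it was altered, the backcrosses and the animals pooled in a library are not stated in any source used here.

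A gene altered by targeting can disturb its neighbours in cis, for example through a selection cassette or a lost regulatory element. The targeted chromosome can also keep a segment of the donor strain around the altered gene, so that flanking genes carry other alleles, known as passenger genes. Either case would be looked for in genes close to the altered one and in cells of many types. Srd5a2 itself turns testosterone into dihydrotestosterone, the stronger androgen on which the prostate depends.

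The libraries held 129015041 unique molecular identifiers (UMIs) in the knockout, against 47601747 and 100801564 in heterozygous 1 and 2, and 9175, 4527 and 9686 cells were kept. The tissue is labelled prostate, but every library also held seminal vesicle-like cells. Genes of seminal vesicle secretion, present in free RNA, made up 3.41% of luminal UMIs in the knockout, against 0.468% and 1.73% in the heterozygous libraries. In fibroblasts the share was 5.87% in the knockout, against 5.94% and 1.19%, and the subtraction of other cells' RNA removed 12.9% of fibroblast UMIs in the knockout, against 39.6% and 8.73%, values that bear on each fibroblast level given below; heterozygous 1 had 62 fibroblasts. In ionocytes the share was 36.3% in the knockout, against 44.4% and 41.6%, and the subtraction did not cover that class. These shares bear on each ionocyte level given below. Heterozygous 1 held only 2 barcodes with under 500 genes, against 2521 in the knockout and 2249 in heterozygous 2. Few cell barcodes were shared between libraries: 15 between the knockout and heterozygous 1, 57 between the knockout and heterozygous 2, and 16 between the heterozygous libraries. The cells fell into 34 clusters, and 7 marker-named classes had at least 50 cells in each library: luminal, basal, seminal vesicle, ionocyte, fibroblast, smooth muscle and endothelial. The names rest on marker genes alone, so each stands for cells like that type. For each class, the UMIs of its cells were added up within a library and are given as CPM, that is, relative to the class total, with TMM scaling to correct for composition. Log2 fold changes are knockout over heterozygous, ± standard error, from edgeR's quasi-likelihood test of 1 against 2 libraries. Adjusted p-values are Benjamini-Hochberg over all genes tested in the class, with a call at 0.05. These p-values measure only the spread between these libraries, which may be technical.

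Srd5a2 was nearly absent from the stroma of the library labelled knockout. In fibroblasts it had 1 UMI in the knockout, against 29 and 44 in heterozygous 1 and 2. That is 0.772 CPM against 139 and 121 CPM, a level 180-fold lower in the knockout with a 95% counting interval of 31.3 to 7213 (edgeR adjusted p = 7.55e-06). In smooth muscle it had 3 UMIs in the knockout, against 55 and 58 in the heterozygous libraries, which is 73.8-fold lower (24.6 to 363, edgeR adjusted p = 9.69e-26), a call that ended under the stricter cell filter (adjusted p = 0.557). The intervals cover counting error only.

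The sequences shown first are those of the neighbours whose levels recur below. Cebpz, a nucleolar CCAAT-binding protein needed for ribosome production, and Ndufaf7, a methyltransferase that helps assemble mitochondrial complex I, are transcribed away from each other. Their annotated starts stand 78937066 and 78937136 on chromosome 17 and leave 69 bases between them. Those bases are shown whole on the plus strand of mm10 (RefSeq, GRCm38.p6), chr17:78937067-78937135, because Cebpz and Ndufaf7 share them and did not take the same side of the heterozygous libraries.
Cebpz-Ndufaf7: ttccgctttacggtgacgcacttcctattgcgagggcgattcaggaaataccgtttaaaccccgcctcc
The promoter of Wdr43, a nucleolar protein that takes part in making the small ribosomal subunit, is shown because its level lay above both heterozygous libraries in 6 of 7 classes. This promoter was chosen after the values of Wdr43 were seen. It covers 250 bases before to 50 after the RefSeq start, on the plus strand, chr17:71615965-71616264. Capitals mark CACGTG, an E-box, which begins 18 bases into the transcript.
Wdr43: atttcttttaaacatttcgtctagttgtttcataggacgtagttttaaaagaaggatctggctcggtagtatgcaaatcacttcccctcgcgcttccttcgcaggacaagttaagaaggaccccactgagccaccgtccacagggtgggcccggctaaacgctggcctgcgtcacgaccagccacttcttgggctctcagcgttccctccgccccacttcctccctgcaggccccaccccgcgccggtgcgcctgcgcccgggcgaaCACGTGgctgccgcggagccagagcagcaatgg
RefSeq promoters of this length were found for 31 of the 36 genes. CACGTG, which reads the same on both strands, was present in 3 of them (Lpin2, Wdr43 and Trmt61b), and in 7.15% of all 32851 mouse promoters. The full palindromic androgen response element was in 0 of the 31, and in 0.00913% of all promoters.

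Across classes, few tests of the neighbours of Srd5a2 were called, a share near or under that of all genes. All 36 were tested in at least 1 class, 29 in at least 4 and 13 in all 7, which gave 191 tests of a gene in a class. Of these, 3 were called (1.57%), where 2.76% of all 73842 tests were called. With doublets kept the count was 8 of 201 (3.98%, against 3.80% of all tests), and with RNA of other cells subtracted it was 1 of 130 in 5 classes (0.769%, against 1.89%). At an unadjusted p under 0.05 there were 27 tests (14.1%, against 9.95% over all genes). The knockout lay above both heterozygous libraries in 76 of the 191 tests, where 33.6% of all 73842 tests did. It lay below both in 58 of the 191, where 33.8% of all tests did, so outside them in 70.2%, against 67.3% over all genes. The log2 fold change was beyond 1 in either direction in 15 tests (7.85%, against 9.12%). The median was 0.04 over the neighbours and -0.02 over all genes tested. Of the 29 genes tested in at least 4 classes, 19 lay above both heterozygous libraries in one class and below both in another, as did 58.4% of all such genes.

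By class, the calls were 2 of 29 neighbours in seminal vesicle cells, where 9.56% of all genes were called, and 1 of 31 in smooth muscle, where 4.31% were. None was called in luminal cells (35 tested, background 1.91%), basal cells (31 tested, 0.134%), fibroblasts (20 tested, 0.384%) or endothelial cells (17 tested, 0.831%). In ionocytes no gene at all was called by edgeR (28 neighbours tested, background 0.0%), with 578 of 10817 genes at an unadjusted p under 0.05 and 16 called by DESeq2. These backgrounds moved with the settings: edgeR called 189 ionocyte genes with median-ratio size factors, 182 under the stricter cell filter and 227 with doublets kept, and basal calls were 16, against 275 with median-ratio factors and 404 under the stricter filter. At an unadjusted p under 0.05 the neighbours numbered 2 in luminal cells (8.37% of all genes), 5 in basal cells (7.2%), 6 in seminal vesicle cells (18.8%) and 2 in ionocytes (5.34%). In the stroma they numbered 4 in fibroblasts (7.13% of all genes), 7 in smooth muscle (13.3%) and 1 in endothelial cells (6.59%).

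Cebpz, 4.87 Mb from Srd5a2, was the only one of the 13 neighbours tested in all 7 classes that lay above both heterozygous libraries in each, where 3.33% of 4148 genes tested in all classes did. None of the 13 lay below both in each, where 1.71% did. In luminal cells it had 127 CPM in the knockout, against 85.0 and 79.1 CPM in heterozygous 1 and 2. In basal cells the values were 168 CPM in the knockout and 126 and 92.5 CPM in the heterozygous libraries. The epithelial difference was of like size in seminal vesicle cells, which had 44.3 CPM in the knockout, against 32.4 and 28.1 CPM. In that class TMM scaling raised knockout values and lowered heterozygous ones, and the side a gene took could depend on it. Wdr43, for example, had 31.5 CPM there in the knockout before scaling, against 41.6 and 43.2 CPM. After scaling it had 50.6 CPM, against 34.0 and 33.0 CPM. The same factors apply to Cebpz, which lay below both heterozygous libraries in that class before scaling. Its place above both in all 7 classes therefore rests on the scaling.
Stromal cells followed the same order. Fibroblasts had 115 CPM of Cebpz in the knockout, against 72.1 and 60.3 CPM in the heterozygous libraries. Smooth muscle had 88.4 CPM in the knockout, against 68.0 and 40.8 CPM, and endothelial cells had 125 CPM, against 113 and 67.6 CPM. In both the heterozygous libraries also lay far from each other. Ionocytes had 77.4 CPM in the knockout, against 65.2 and 53.0 CPM.
The log2 fold changes of Cebpz ran from 0.40 in ionocytes to 0.82 in fibroblasts, with a median of 0.62. None passed the test: 5 of the 7 had an unadjusted p under 0.05, and the smallest adjusted p was 0.105 in smooth muscle (0.73 ± 0.26, edgeR). The classes come from the same 3 libraries and are not replicates of each other. Cebpz overlaps Cebpzos on the opposite strand, and reads of the overlap cannot be assigned, as the strand setting is not stated. Cebpzos lay below both heterozygous libraries in 4 of 6 classes and above both in 0, with a median of -0.44.

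Outside these classes the order held in some sets of barcodes and not in others. Over all barcodes of a library, and with no scaling, Cebpz came to 66.1 CPM in the knockout, against 75.3 and 71.5 CPM in the heterozygous libraries. Seminal vesicle cells, where Cebpz was lowest in each library, made up 2392 of the kept cells in the knockout, against 361 and 904. Among barcodes with under 500 genes it came to 59.4 CPM in the knockout, against 38.1 CPM in heterozygous 2. In the cells of unnamed clusters the unscaled level was 82.4 CPM in the knockout, against 46.7 and 62.9 CPM. With other cells' RNA subtracted in 5 classes, Cebpz stayed above both in each. The amount removed was set by the share of seminal vesicle genes, not by measured free RNA. Seminal vesicle cells and ionocytes were left out, and the part of free RNA in the class values was not tested.

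Nlrc4, the core of an inflammasome that responds to bacterial proteins, and Ttc27, a protein with tetratricopeptide repeats, also lay above both heterozygous libraries in each class tested. That made 3 of 29 genes above in every class, where 2.81% of 10906 genes tested in at least 4 classes were, and 0 of 29 below in every class, where 2.53% were. The count of genes on one side was 2 with no low-count filter or under the stricter cell filter, and 1 of 21 with other cells' RNA subtracted. It was 7 without heterozygous 1 and 4 without heterozygous 2, but there a gene is compared with a single heterozygous library, a looser rule. The 7 include Lclat1 and the 4 include Ndufaf7, both on the lower side. No share over all genes is given for these settings, so the counts cannot be set against the 3 of 29. Nlrc4 is the fourth of the genes examined after Srd5a2, 0.378 Mb away, and was scarce. It had 98 UMIs in luminal cells of the knockout, against 81 and 151 in the heterozygous libraries, or 4.58 CPM against 2.96 and 2.84 CPM. In seminal vesicle cells it lay above both only after TMM scaling, with 2.10 unscaled CPM in the knockout, against 2.96 and 2.42 CPM. In ionocytes it had 5.76 CPM in the knockout, against 2.05 and 2.31 CPM. The log2 fold change there was 1.36 ± 0.47 (edgeR adjusted p = 0.875), and the lowest of the 4 classes was 0.49 in basal cells on 15, 3 and 10 UMIs in the knockout and heterozygous 1 and 2.
For Ttc27 the distance to the nearer heterozygous library was small in 3 of 5 classes. It had 27.0 CPM in basal cells of the knockout, against 24.6 and 26.3 CPM, and 14.0 CPM in ionocytes, against 11.8 and 13.8 CPM. Luminal cells had 22.1 CPM, against 18.1 and 21.7 CPM. It was further apart in seminal vesicle cells, with 9.85 CPM in the knockout against 3.90 and 7.52 CPM (0.73 ± 0.31, edgeR adjusted p = 0.132), and in smooth muscle, with 16.5 CPM against 7.80 and 10.6 CPM. In seminal vesicle cells Ttc27 also lay above both only after TMM scaling, and between the heterozygous libraries before it.

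Wdr43 and Smchd1, both named after their values were seen, came close to the same pattern. Wdr43 lay above both heterozygous libraries in 6 of 7 classes, with a median log2 fold change of 0.58. The share of all genes above both in 6 of 7 classes is not given here, and 33.6% of all class tests over all genes lay above both. Basal cells had 286 CPM of Wdr43 in the knockout, against 200 and 166 CPM in the heterozygous libraries, and luminal cells had 103 CPM, against 69.5 and 68.0 CPM. Fibroblasts were the exception, with 113 CPM in the knockout between 135 and 76.8 CPM. No class was called, and the smallest adjusted p was 0.216 (edgeR).
Smchd1, a chromatin protein known for silencing genes of the inactive X chromosome, lay above both in 6 of 7 classes and between them in smooth muscle (197 CPM in the knockout, against 219 and 166 CPM). Its differences were mostly smaller, with a median of 0.23. In seminal vesicle cells Smchd1 lay above both only after TMM scaling, with 16.3 unscaled CPM in the knockout, against 29.9 and 28.2 CPM. Fibroblasts showed the widest one, 162 CPM in the knockout against 101 and 71.3 CPM (0.95 ± 0.36, edgeR adjusted p = 0.499), which was called with doublets kept (1.06, adjusted p = 0.0179). Wdr43 and Smchd1 lie 2.36 and 2.54 Mb from Srd5a2, on the other side of it from Cebpz.

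Ndufaf7, which shares the 69 bases shown above with Cebpz, lay below both heterozygous libraries in 5 of 6 classes. The share of all genes that did so is not given here. Basal cells had 3.55 CPM in the knockout, against 7.61 and 7.36 CPM (-1.06 ± 0.43, edgeR adjusted p = 0.684). Fibroblasts had 5.40 CPM in the knockout, against 33.6 and 21.9 CPM, on 7, 7 and 8 UMIs. Luminal cells, which had most of its UMIs (300 in the knockout, against 467 and 650), had 14.0 CPM in the knockout, between 17.1 and 12.2 CPM. The median log2 fold change of Ndufaf7 was -0.37, against 0.62 for Cebpz, and none of its tests was called. Whether Cebpz and Ndufaf7 differ from each other was not tested.

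**Figure D1:**
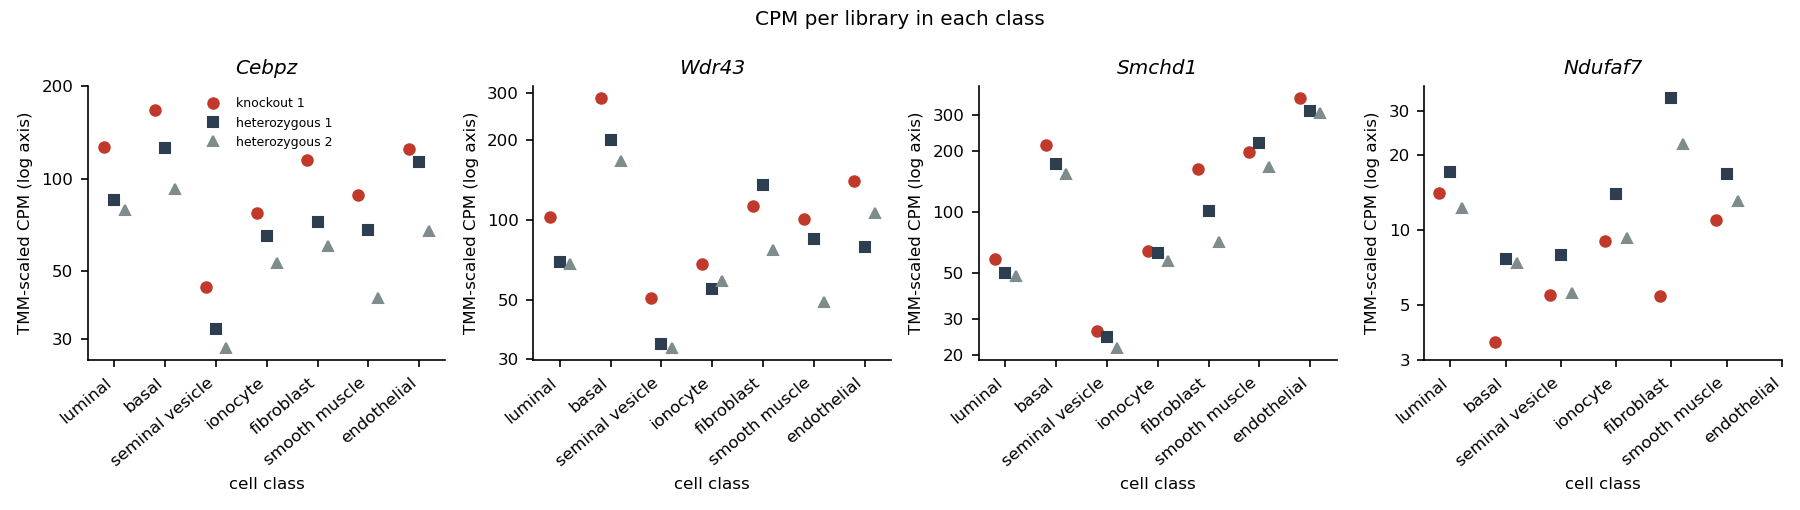
TMM-scaled CPM (log axis) of Cebpz, Wdr43, Smchd1 and Ndufaf7 in each cell class, 1 point per library, with the knockout (red) left of heterozygous 1 and 2. The red point is the highest in 7 of 7 classes for Cebpz and in 6 of 7 for Wdr43 and Smchd1, and the lowest in 5 of 6 for Ndufaf7, which was not tested in endothelial cells.

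Single clusters gave finer groups of like cells, a split added after the data were seen. In 18 clusters with at least 50 cells in each library, Smchd1 lay above both heterozygous libraries in 18 of 18, with log2 fold changes from 0.06 to 0.95. It was 1 of 25 neighbours tested in at least 10 clusters that lay above in every one, which was found in 0.486% of 9466 such genes. Wdr43 and Cebpz lay above in 17 of 18 each, with medians of 0.56 and 0.62, counts with no share of all genes beside them. Of the other neighbours, some lay mostly above, some mostly below and some on both sides. Birc6 lay above both in 13 of 18 clusters and below both in 0, and Fam98a above both in 10 of 15 and below both in 1. Ttc27 lay above both in 9 of 15 clusters and below both in 3, and Ndufaf7 lay below both in 6 of 15 and above both in 1. Yipf4 lay below both in 11 of 18 clusters and above both in 0, and Lpin2 below both in 10 of 16. No share of all genes stands beside these counts either, so they are not read as particular to the neighbours. Over all genes, 33.6% of class tests lay above both and 33.8% below both. Over all 445 tests of a neighbour in a cluster, 7 were called (1.57%, against 1.82% of all such tests), 6 of them higher in the knockout (0.956% of all such tests were called higher). Wdr43 was called in 1 cluster, and neither Cebpz nor Smchd1 in any. Clusters of 1 class hold cells of the same libraries.

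Myom1 and Lpin2 were called in seminal vesicle cells, in a class whose knockout cells stood mostly in clusters of their own. Myom1, which encodes the M-band protein myomesin of striated muscle, had 11.5 CPM in the knockout, against 3.76 and 3.16 CPM in the heterozygous libraries. The UMIs behind these were 429 in the knockout, against 28 and 53. The log2 fold change was 1.75 ± 0.32 (edgeR adjusted p = 3.06e-06).
Lpin2, which encodes lipin 2, a phosphatidate phosphatase of lipid synthesis, had 27.4 CPM in the knockout, against 7.66 and 9.61 CPM, on 1025 UMIs against 57 and 161. The log2 fold change was 1.65 ± 0.27 (edgeR adjusted p = 1.45e-07), and the call ended under the stricter cell filter (0.37, adjusted p = 0.654) and at Leiden resolution 2.0 (0.51, adjusted p = 0.457). In both genes the knockout lay above both heterozygous libraries by more than those differed.

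The clusters of that class did not hold the same libraries. Cluster 10 had 810 knockout cells against 1 and 2 heterozygous cells, and cluster 11 had 781 against 8 and 4. They gave 42.0% and 46.9% of the knockout's Lpin2 UMIs in the class, and 31.7% and 56.9% of its Myom1 UMIs. Cluster 10 was shallow, with a median of 2368 UMIs per cell, and its 10 leading genes included no marker of the seminal vesicle, although 5 of 8 markers were detected.
Cluster 3, led by Pate8, Ccdc162 and Pate4, held 505 knockout cells against 311 and 499. There Lpin2 had 6.40 CPM of the cluster's UMIs in the knockout, against 6.03 and 6.70 CPM, and Myom1 had 3.01 CPM, against 2.74 and 2.08 CPM. Fitted alone, cluster 3 gave Lpin2 a log2 fold change of -0.05 (edgeR adjusted p = 0.997) and Myom1 one of 0.31 (adjusted p = 0.972). In cluster 19, with 292 knockout cells against 37 and 169, Lpin2 had 44.1 CPM in the knockout, against 54.5 and 84.6 CPM, and Myom1 had 16.9 CPM, against 27.3 and 32.7 CPM. Neither gene was therefore above both heterozygous libraries in every cluster that all libraries shared, and the class difference cannot be told apart from the clusters present in 1 library.

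In other classes neither gene was called. Myom1 lay below both heterozygous libraries in basal cells, ionocytes and luminal cells, and between them in smooth muscle, with 99.6 CPM in the knockout against 118 and 96.4 CPM. Lpin2 lay below both in basal cells (37.7 CPM in the knockout, against 55.5 and 57.7 CPM) and luminal cells (78.8 CPM, against 84.4 and 124 CPM). It lay between them in ionocytes, fibroblasts and smooth muscle.

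Vit was the only neighbour called lower. It encodes vitrin, a protein of the extracellular matrix, and lies 4.46 Mb from Srd5a2. Smooth muscle had 7.70 CPM of Vit in the knockout, against 36.8 and 24.5 CPM in the heterozygous libraries, and the groups did not overlap. The log2 fold change was -1.96 ± 0.41 (edgeR adjusted p = 1.65e-04), a call that ended under the stricter cell filter (-1.91, adjusted p = 0.557).
The counts were small. Vit had 29 UMIs in 24 of 711 knockout cells, against 33 UMIs in 28 of 180 and 30 UMIs in 25 of 257 heterozygous cells. Both smooth muscle clusters had the same order: cluster 8 had 6.24 CPM in the knockout, against 35.1 and 23.8 CPM, and cluster 26 had 15.0 CPM, against 49.8 and 27.1 CPM. Cluster 8, led by the contractile genes Actg2 and Cnn1, was called alone (-2.06, adjusted p = 0.00179, edgeR).
Smooth muscle also held more seminal vesicle RNA in the knockout, 3.44% of its UMIs against 0.352% and 0.796%. With RNA of other cells subtracted, Vit in smooth muscle was still called. In basal cells Vit had 15.1 CPM in the knockout, against 28.2 and 18.5 CPM (edgeR adjusted p = 0.773), and in luminal cells it had 1.31 CPM, above 1.06 and 1.15 CPM.

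**Figure D2:**
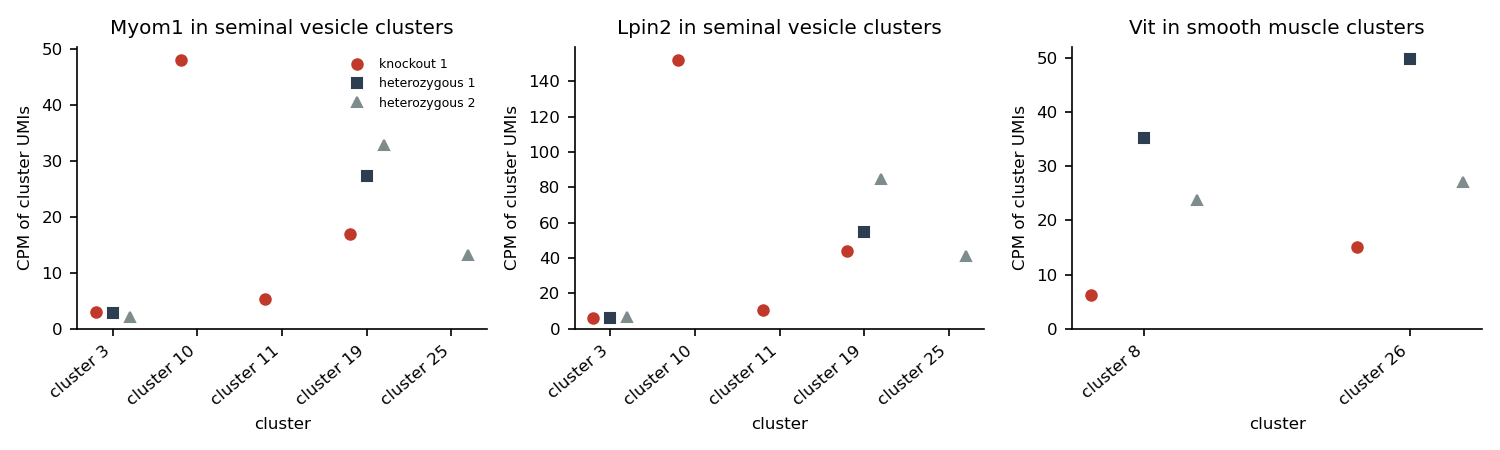
CPM of the UMIs of each cluster, unscaled, for Myom1 and Lpin2 in seminal vesicle clusters and Vit in smooth muscle clusters, 1 point per library with at least 20 cells in the cluster, knockout (red) left of heterozygous 1 and 2. Clusters 10 and 11 have a red point alone and cluster 25 a heterozygous 2 point alone; in cluster 3 the 3 points lie close together, and for Vit the red point is the lowest in both clusters.

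The genes nearest to Srd5a2 were not called in any class, although Capn13 and Memo1 were each called in a single cluster. Before it lie Xdh (0.0668 Mb), the xanthine dehydrogenase of purine breakdown, Ehd3, an ATPase of endosome recycling, Galnt14, which starts O-linked glycans, and Capn13, a calpain protease. Xdh, tested in 6 classes, had 197 CPM in endothelial cells of the knockout, against 124 and 182 CPM in the heterozygous libraries. Its log2 fold changes ran from -0.39 in smooth muscle to 1.18 in seminal vesicle cells, with a median of -0.004.
Ehd3 came closest to a call, in endothelial cells. It had 21.6 CPM there in the knockout, against 113 and 59.1 CPM, on 9, 20 and 14 UMIs (-1.93 ± 0.58, edgeR adjusted p = 0.14). Galnt14 was tested in 2 classes, at -0.16 in basal cells (22.6 CPM in the knockout, against 25.1 and 25.4 CPM) and -0.18 in luminal cells. Capn13 ran from -0.72 in luminal cells to 1.12 in ionocytes, where it had 17.5 CPM in the knockout, against 4.11 and 10.5 CPM (edgeR adjusted p = 0.875). With doublets kept that difference was called (1.46, adjusted p = 0.00956, edgeR). In seminal vesicle cluster 3 alone Capn13 was called as well, with 24.7 CPM in the knockout, against 8.04 and 14.6 CPM (1.08 ± 0.28, edgeR adjusted p = 0.00772), while over the whole class it was at -0.10.

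On the other side lie Memo1 (0.151 Mb), a protein of cell movement, Dpy30, a subunit of histone H3K4 methyltransferases, and Spast, which severs microtubules, ahead of Nlrc4. Memo1 had log2 fold changes between -0.35 in endothelial cells and 0.33 in smooth muscle, above both heterozygous libraries in 5 classes and below both in 2. Luminal cells had 61.1 CPM of it in the knockout, against 56.8 and 48.2 CPM. In luminal cluster 1 alone Memo1 was called, with 102 CPM in the knockout, against 58.5 and 44.6 CPM (0.98 ± 0.30, edgeR adjusted p = 0.0382). Dpy30 ran from -0.28 to 0.14 over 7 classes and lay between the heterozygous libraries in 5 of 7 classes. It had 71.7 CPM in luminal cells of the knockout, against 80.3 and 70.8 CPM. Spast ran from -0.48 to 0.54, below both heterozygous libraries in 4 classes and above both in 2.

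The 3 neighbours with the highest mean CPM over the classes in which they were tested were not called either; CPM is not corrected for gene length and only served to choose them. Rasgrp3, an activator of Ras known in blood vessels, was tested in endothelial cells only, with 278 CPM in the knockout, against 136 and 224 CPM (0.61 ± 0.34, edgeR adjusted p = 0.855). Cdc42ep3, an effector of the small GTPase Cdc42, was highest in endothelial cells, with 924 CPM in the knockout against 775 and 621 CPM. In smooth muscle it had 712 CPM, against 417 and 526 CPM (0.59 ± 0.28, edgeR adjusted p = 0.303).
Crim1, a membrane protein that binds bone morphogenetic proteins, was below both heterozygous libraries in luminal, seminal vesicle and smooth muscle cells and above both in fibroblasts. Smooth muscle had 151 CPM of Crim1 in the knockout, against 177 and 222 CPM. Fibroblasts had 107 CPM, against 43.2 and 65.8 CPM (0.91 ± 0.38, edgeR adjusted p = 0.583). Crim1 overlaps Fez2 on the opposite strand, and no source used here states whether counting used strand, so reads of the overlap cannot be assigned. Other genes given here overlap a gene too. Among them are Wdr43 (Gm30091) and Myom1 (Myl12a) on the opposite strand, and Smchd1 (Gm4707) on the same strand.

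The other neighbours had medians between -0.56 and 0.71, and none was called in a class under the settings used for the main values. The highest was Lbh, a transcription regulator of the Wnt pathway, above both in basal cells (25.8 CPM in the knockout, against 17.4 and 14.5 CPM), luminal cells and ionocytes, and below both in smooth muscle (21.0 CPM, against 45.7 and 23.7 CPM). The lowest was Emilin2, a matrix glycoprotein tested in luminal cells alone, with 0.888 CPM in the knockout between 1.83 and 0.865 CPM. Trmt61b, a mitochondrial RNA methyltransferase, had opposite differences in the 2 stromal classes.
Fibroblasts had 81.0 CPM of Trmt61b in the knockout, against 9.61 and 32.9 CPM (1.76 ± 0.49, edgeR adjusted p = 0.215), on 105, 2 and 12 UMIs. That difference was called with no low-count filter (adjusted p = 0.0192), with doublets kept (0.00953) and at Leiden resolution 2.0 (0.024). Smooth muscle had 92.7 CPM, against 194 and 104 CPM (-0.67 ± 0.27, adjusted p = 0.184). The annotation lists Trmt61b as antisense to Spdya, which it overlaps.
Dlgap1, a scaffold protein of synapses, had 42.3 CPM in ionocytes of the knockout, against 11.3 and 24.6 CPM (1.16 ± 0.44, edgeR adjusted p = 0.875). It was called there with median-ratio size factors (adjusted p = 0.0131), with doublets kept (0.0193) and under the stricter cell filter (0.0277). With doublets kept it was also called in seminal vesicle cells (1.48, adjusted p = 0.00614). In single luminal clusters, Ltbp1 was called in cluster 13 (1.14), and Prkd3, a protein kinase, and Qpct, which cyclizes peptide ends, in cluster 1 (1.02 and 2.75).
Lclat1, an acyltransferase of cardiolipin remodelling, was below both in 4 of 5 classes, with a median of -0.44. No share of all genes stands beside that count. Yipf4, a Golgi membrane protein, stayed within -0.14 to 0.20 in all 7 classes, and Birc6, a giant ubiquitin ligase that blocks apoptosis, within -0.13 to 0.43. Ltbp1, which binds latent TGF-β, ran from -0.99 in seminal vesicle cells to 2.08 in ionocytes, where it had 15 UMIs in the knockout, against 2 and 3.

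The size of the difference showed no order by distance from Srd5a2. Over the 29 neighbours tested in at least 4 classes, the rank correlation of distance with the size of the median log2 fold change was 0.12, as a description across genes of the same libraries. The medians ran from -0.44 to 0.71, and 25 of 29 lay within 0.5 of 0. Genes of chromosome 17 outside the set were called in 2.27% of 88 tests within 5 Mb, in 1.42% of 422 tests between 5 and 15 Mb and in 3.08% of 1687 tests between 15 and 45 Mb, against 1.57% for the neighbours. Within 5 Mb the calls were Eif2ak2, a kinase of the interferon response, and Epb41l3, a membrane skeleton protein, both in seminal vesicle cells and named after their values were seen.
Eif2ak2 had 30.1 CPM there in the knockout, against 12.1 and 11.6 CPM (1.35 ± 0.27, edgeR adjusted p = 3.49e-05). Epb41l3 had 3.51 CPM in the knockout, was at 0 in heterozygous 1 and had 0.597 CPM in heterozygous 2. Epb41l3 lay above both heterozygous libraries in each of the 4 classes in which it was tested, with a median of 0.45, the 1 of 10 genes within 5 Mb and outside the set that did so.

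The chromosome 17 genes called the same way in at least 3 classes all lay far from Srd5a2. They included Sbp (50.1 Mb away), a secreted prostate protein, and Rrp1b (42.0 Mb), a nucleolar protein. Sbp was lower in 4 classes, with log2 fold changes from -4.43 to -2.06 over all 7. It also served as a luminal marker here, and luminal cells were 17.6% of kept cells in the knockout, against 55.4% and 51.9%. The part of luminal RNA in the Sbp values of other classes was not tested. Rrp1b was higher in 4 classes, with log2 fold changes from 1.04 to 1.81 over all 7. The ribosomal protein genes Rps2 (49.3 Mb), Rps10 (46.4 Mb) and Rpl36 (17.4 Mb) were each higher in 3 classes, with medians of 1.18, 0.92 and 0.86.

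**Figure D3:**
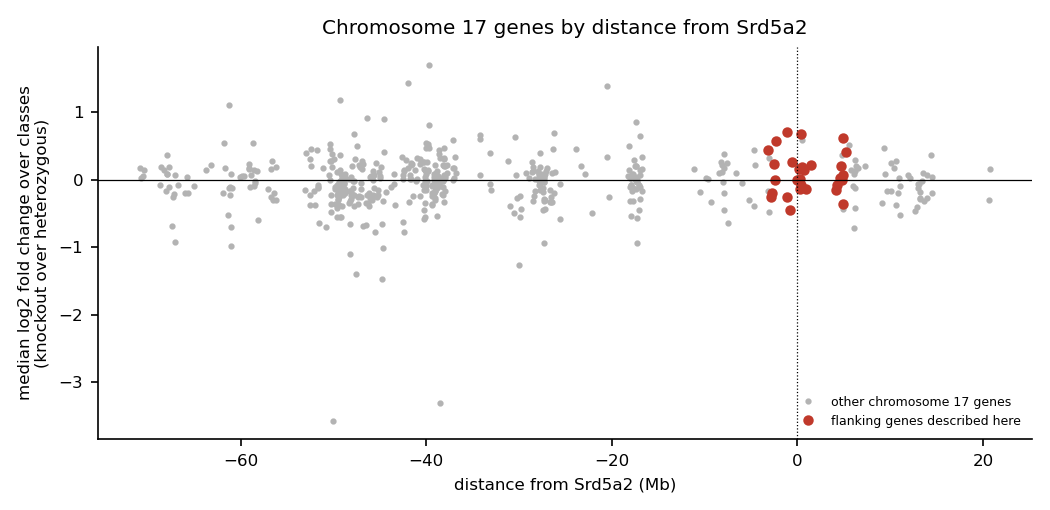
Median log2 fold change over classes, knockout over heterozygous, against distance from Srd5a2 in Mb for chromosome 17 genes tested in at least 4 classes. The 29 neighbours (red) lie between -0.44 and 0.71, and the genes furthest from 0 are grey points more than 15 Mb away.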

How the data were processed

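The authors deposited raw UMI counts per gene and barcode, and the submitters' processing notes name Cell Ranger 3.1.0 and mm10. Cell calling and the strand setting are not stated in any source used here. The cell filter took barcodes of 500 or more genes with mitochondrial UMIs up to 15%, and the highest simulated-doublet scores were removed at 0.8% per 1000 cells (808 in the knockout, 191 and 901 in heterozygous 1 and 2). Cells were clustered on 2000 variable genes, 30 components, 15 neighbours and Leiden resolution 1.0 (igraph 0.11.9), and a cluster was named with at least 3 markers detected. Class sums were tested with edgeR 4.0.16 (R 4.3.3; filterByExpr, TMM, quasi-likelihood), with 1 residual degree of freedom. The spread of the knockout is taken to equal that of the heterozygous libraries, and regrouping 3 libraries cannot give p below 0.33. "Above both" compares TMM-scaled CPM, not logged and with no prior count. On simulated counts with 200 genes changed 4-fold, the share recovered ran from 74% in fibroblasts (5933 genes) to 94% in basal cells (11562 genes). Up to 13 unchanged genes were called in a class. Only genes with enough expected UMIs in every library were changed, so these shares do not cover scarcer genes or smaller changes. Coordinates are GENCODE vM21, which matched 32527 of 32594 genes. Replicate numbers only name the libraries. Named genes were those called in a class, those on one side in every class tested (at least 4), the 4 nearest on each side and the 3 with the highest mean CPM, plus chromosome 17 genes called one way in at least 3 classes. The members, lists and rules were chosen with earlier results of these data known. Alternatives were other size factors, DESeq2 1.42.0, no low-count filter, other cell filters, clusterings and subtraction of other cells' RNA.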

Additional observations from a re-analysis of the deposited data

Results flagged for a closer look

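The flagged results are genes whose knockout value lay above both heterozygous libraries in one class and below both in another. No difference between classes was tested. The gap in log2 fold change was 2.751 for Myom1 between seminal vesicle cells and ionocytes, 2.239 for Lpin2 between seminal vesicle and basal cells, and 2.201 for Vit between luminal cells and smooth muscle. It was 1.84 for Capn13 between ionocytes and luminal cells, 1.792 for Cdc42ep3 between fibroblasts and seminal vesicle cells, and 1.322 for Crim1 between fibroblasts and smooth muscle. It was 1.029 for Spast and 0.6786 for Memo1, each between smooth muscle and endothelial cells. Such a pair of classes was found in 58.4% of all genes tested in at least 4 classes.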

How the results depend on the processing

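No paired analysis was possible, because the labels state no pairs and replicate numbers only name the libraries. The 3 calls became 8 with doublets kept and 1 with other cells' RNA subtracted, an alternative that covered 5 classes and left out seminal vesicle cells and ionocytes. They ranged from 2 to 4 under the other settings. The 3 genes on one side in every class became 1 (Cebpz) with the subtraction and 2 with no low-count filter or the stricter cell filter. Against a single heterozygous library, a looser rule, they numbered 4 without heterozygous 2 and 7 without heterozygous 1. Cebpz was on one side under each of these settings, none of which left the class values unscaled. Nlrc4 was under all but the subtraction, where fewer than 4 classes were tested. Ttc27 was lost with no low-count filter, with doublets kept and under the stricter cell filter. Srd5a2 in smooth muscle was at -5.98 under the stricter filter (edgeR adjusted p = 0.557), where no gene of the class was called and 682 had an unadjusted p under 0.05. Without one heterozygous library Srd5a2 ranged from -6.16 to -5.79 in smooth muscle and from -7.16 to -6.96 in fibroblasts, with no test. DESeq2 gave no adjusted p for Srd5a2 and Vit in smooth muscle. Lpin2 in seminal vesicle cells was at 0.37 under the stricter filter and 0.51 at Leiden resolution 2.0 without a call, and at -0.054 in cluster 3 alone, an alternative added after the data were seen. The cause was not tested.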
